A study of Homo sapiens with 16 samples.

Results

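The metallothioneins, the zinc exporter gene SLC30A1 and the zinc-sensing factor gene MTF1 were followed in OCI-AML3 cells, an established human line of acute myeloid leukaemia, after 3 h of treatment. The members were the rows whose Ensembl identifier maps to MT1A, MT1E, MT1F, MT1G, MT1H, MT1M, MT1X, MT2A, SLC30A1 or MTF1, which are 10 of the 62700 genes measured by RNA-seq, 8 of them metallothioneins. The 16 libraries comprised untreated cells (n = 4), cells given all-trans retinoic acid (ATRA) at 0.1 µM (n = 3), cells given the synthetic retinoid Am80 at 0.1 µM (n = 3), and cells given ATRA (n = 3) or Am80 (n = 3) together with inhibitors of LSD1 and GCN5. LSD1 is a histone demethylase and was inhibited with GSK-LSD1 at 0.1 µM, and GCN5 is a histone acetyltransferase and was inhibited with MB3 at 100 µM. Both inhibitors were always given together and always beside a retinoid, so the effect of either inhibitor, or of the pair without a retinoid, cannot be told apart from the combination in these libraries. All groups came from 1 cell line, and nothing states that the libraries of a group came from separate cultures, so p-values measure the spread between these libraries, which may be technical.

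Values are read counts that the authors divided by a size factor for each library (normalized counts), and their whole read numbers could be recovered. A gene was tested when its mean over the 16 libraries reached 10 normalized counts, which held for 9 of the 10 members and 14643 genes in all. A gene was called when the adjusted p of limma, over all genes tested, was under 0.05 and the fold change on the log2(normalized count + 1) scale was at least 1.5. Libraries held 11963898 to 33789718 reads. All 8 myeloid marker genes checked were past the same filter, and the marker genes of T cells, erythroid cells, platelets and epithelial cells had at most 2 reads in any library. In bulk RNA, fewer cells with a transcript and less of it per cell cannot be told apart.

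Metallothioneins are small cysteine-rich proteins that bind zinc and copper and so buffer free metal in the cell. When zinc rises, the zinc-finger protein MTF1 binds metal response elements in the promoters of the metallothionein genes and of SLC30A1, which encodes ZnT1, the transporter that moves zinc out across the plasma membrane. Metallothionein genes are also known to be induced by cadmium, glucocorticoids and oxidants.

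The 8 metallothionein genes lie in 1 cluster on chromosome 16 (GENCODE 29, GRCh38). Their order begins with MT2A (chr16:56608199-56609497), MT1E (chr16:56625475-56627112), MT1M (chr16:56632233-56633986) and MT1A (chr16:56638666-56640087). It continues with MT1F (chr16:56657694-56660698), MT1G (chr16:56666731-56668065), MT1H (chr16:56669814-56671129) and MT1X (chr16:56682424-56684196). MT1G is on the minus strand and the other 7 are on the plus strand. SLC30A1 (chr1:211571568-211578742) and MTF1 (chr1:37809567-37859620) are both on the minus strand of chromosome 1.

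RefSeq promoter windows, from 250 bases before a gene's start to 50 bases after it, were at hand for 5 members (GRCh38.p14): MT2A, MT1H, MT1X, SLC30A1 and MTF1. The core of the metal response element was searched as TGCACNC and TGCGCNC on both strands. It matched 8 times in the window of MT2A, 8 times in that of MT1H, 4 times in that of MT1X, 2 times in that of SLC30A1 and 0 times in that of MTF1. At least 1 match was found in 29.6% of the 35116 promoters in the table, at least 2 in 8.6%, at least 4 in 0.601% and at least 7 in 0.0484%. The core of the antioxidant response element, searched as TGACNNNGC on both strands, matched 1 time each in MT2A, MT1X and SLC30A1 and 0 times in MT1H and MTF1, against 13.3% of all promoters with at least 1 match. The DR5 element, a retinoic acid receptor site, matched in none of the 5 windows and in 0.0883% of all promoters. A match is a run of letters and no evidence of binding, and no match says only that the letters are not in the window.

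The bases upstream of MT1X, MT1H and SLC30A1 are shown because they place the element in an expressed metallothionein, in a metallothionein with almost no reads, and in the exporter. Capitals mark the core of the metal response element on either strand, and the sequences run 5′ to 3′ on the strand of the gene. They cover chr16:56682220-56682423 on the plus strand for MT1X, chr16:56669564-56669813 on the plus strand for MT1H and chr1:211579162-211579411 on the minus strand for SLC30A1.
MT1X: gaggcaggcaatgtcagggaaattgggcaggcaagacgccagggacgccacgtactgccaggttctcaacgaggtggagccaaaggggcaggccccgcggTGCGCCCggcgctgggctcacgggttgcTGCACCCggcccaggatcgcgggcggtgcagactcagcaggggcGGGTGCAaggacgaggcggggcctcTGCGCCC
MT1H: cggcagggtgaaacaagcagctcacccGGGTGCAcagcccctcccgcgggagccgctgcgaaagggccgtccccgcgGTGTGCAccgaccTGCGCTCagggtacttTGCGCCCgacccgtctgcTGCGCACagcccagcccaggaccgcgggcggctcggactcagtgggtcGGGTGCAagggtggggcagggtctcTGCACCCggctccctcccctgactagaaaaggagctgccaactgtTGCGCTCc
SLC30A1: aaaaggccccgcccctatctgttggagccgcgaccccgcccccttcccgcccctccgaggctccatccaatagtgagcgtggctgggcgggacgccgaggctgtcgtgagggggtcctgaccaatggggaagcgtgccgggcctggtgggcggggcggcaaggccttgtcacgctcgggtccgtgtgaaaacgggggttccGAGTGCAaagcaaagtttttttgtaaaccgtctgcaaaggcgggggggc
The stretch printed for MT1X holds all 4 of its upstream matches, and that of MT1H holds 8. Distances are counted from the RefSeq start, which equals the GENCODE 29 start for MT1H, lies downstream of it for MT1X and MT2A, and lies upstream of it for SLC30A1. Of the matches of SLC30A1, 1 lies upstream, beginning 49 bases before the RefSeq start. In the 250 bases before the RefSeq start of MT2A, which lie inside the first exon of a longer annotated MT2A transcript, 7 matches begin between 246 and 8 bases before that start.

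The metallothionein genes resemble each other, which bears on how their reads were assigned. Of all 51-base stretches in the annotated transcripts, the share also found exactly in another gene was 18.1% for MT1X, 16.1% for MT1G, 15.4% for MT1H, 9.20% for MT1M, 6.73% for MT1E, 5.49% for MT1A, 2.80% for MT2A and 1.12% for MT1F. This search took in genes outside the family and both strands, so these shares do not measure likeness within the family alone. When up to 2 mismatches within the family were allowed, the share ran from 5.48% for MT1F and 10.1% for MT2A to 33.8% for MT1H and 35.0% for MT1A. SLC30A1 shared none of its stretches and MTF1 0.878%. Values of MT1A, MT1M, MT1G, MT1E and MT1X are therefore less certain as values of single genes than those of MT2A and MT1F, and how reads with several matches were counted is not given in the sources used here.

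In untreated cells MT1G had the highest level of the members per kilobase of annotated exon, at 1219 ± 244 normalized counts (SD, n = 4). MT1E followed at 924 ± 276, MT2A at 527 ± 114 and MT1X at 327 ± 50.3 normalized counts per kilobase. SLC30A1 was at 302 ± 11.1, MT1F at 270 ± 57.5, MT1A at 134 ± 24.2, MTF1 at 114 ± 10.9 and MT1M at 17.9 ± 3.87. The mean ± SD intervals of the neighbours MT1G and MT1E overlapped, as did those of MT1X, SLC30A1 and MT1F, and those of MT1A and MTF1. The length used joins all annotated exons of a gene, 1889 bases for MT1F and 1773 for MT1X. Their mean transcript lengths were 749 and 816 bases, so these levels and their order depend on the length chosen. By library, MT1G was at 802, 830, 836 and 1188 normalized counts in untreated cells, MT1E at 784, 857, 841 and 1405, and MT2A at 595, 563, 686 and 893. MT1F was at 469, 446, 451 and 671, MT1A at 44.6, 48.0, 53.6 and 66.5, and MT1M at 18.1, 15.7, 12.5 and 21.1. Untreated replicate 4 was the highest of its group in each of these 6 genes. MTF1, at 898, 971, 996 and 801 normalized counts, was lowest in that library.

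MT1H was detected with 3 reads in untreated replicate 4 and 1 read in ATRA replicate 3, and with 0 reads in the other libraries, so it was under the filter and was not tested. A count of 0 allows up to 3 reads in a library, by counting error alone. Of the 11 further metallothionein genes and pseudogenes, 10 had at most 1 read in any library, and the pseudogene MT1XP1 had 1 to 8 reads in each.

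**Figure D1:**
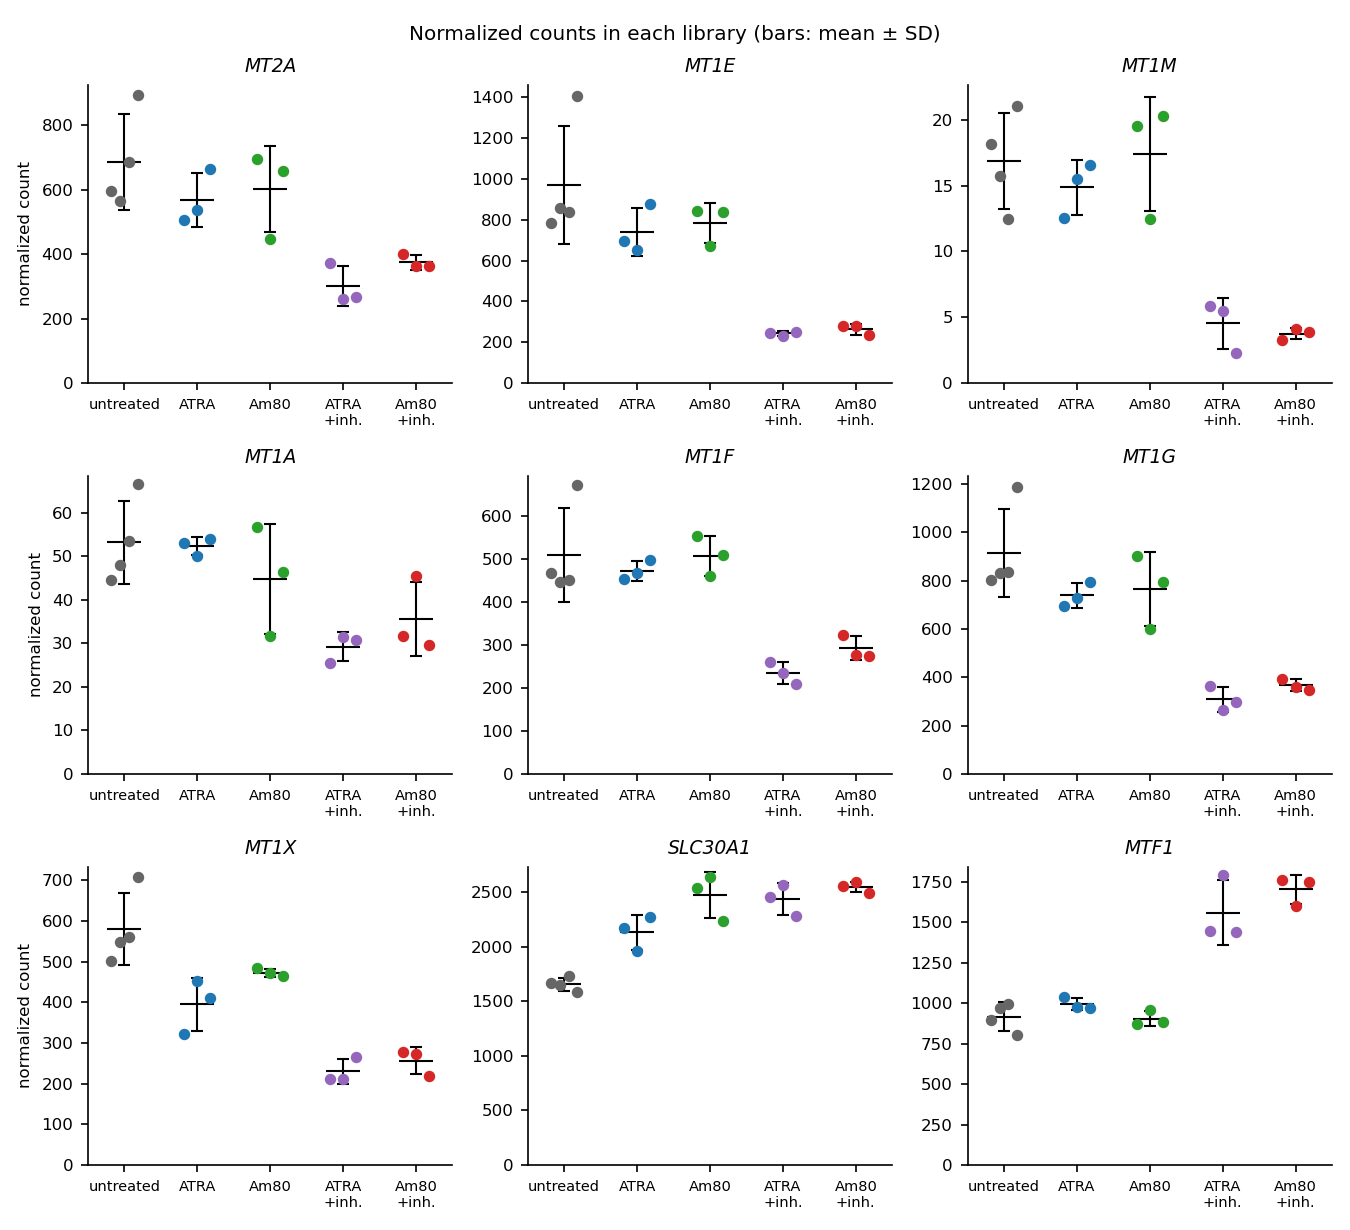
Normalized counts of the 9 tested members in each library (points), with group mean ± SD (bars), for untreated cells (n = 4), ATRA, Am80, ATRA with inhibitors and Am80 with inhibitors (n = 3 each), each axis starting at 0. Metallothionein points of the libraries with inhibitors lie lowest, apart from overlapping MT1A points, and those of MTF1 lie highest.

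The first question was whether the retinoids alone moved these genes. Neither retinoid gave a called change by limma in any of the 9 tested members after 3 h, where ATRA raised 6.52% and lowered 2.94% of all genes tested, and Am80 raised 6.41% and lowered 3.76%. Without the limit on the fold change, ATRA gave a higher level of SLC30A1 and a lower level of MT1X, against 12.5% of genes higher and 12.1% lower, and Am80 gave a higher level of SLC30A1, against 15.4% higher and 13.4% lower. At an unadjusted p under 0.05 there were 3 members with ATRA (SLC30A1, MT1E and MT1X) and 2 with Am80 (SLC30A1 and MT1X). DESeq2 called 0 members in either comparison, and edgeR called 0 with ATRA and 1 with Am80.

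SLC30A1, the zinc exporter, was at 1664, 1645, 1728 and 1580 normalized counts in untreated cells. It was at 2168, 1957 and 2267 with ATRA and at 2538, 2637 and 2238 with Am80. All 6 retinoid libraries lay above all untreated ones. The log2 fold change was 0.36 ± 0.07 (SE, limma adjusted p = 0.000408) with ATRA, and 0.58 ± 0.07 (adjusted p = 1.32e-06) with Am80, which is 1.49-fold and just under the limit of 1.5. With Am80 the call therefore turned on small changes of the fit: SLC30A1 was called by edgeR (log2 fold change 0.59), without untreated replicate 3 (0.60) and without Am80 replicate 3 (0.65). The ATRA difference was 0.23 (adjusted p = 0.0112) with GC and length trends removed.

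MT1X was at 502, 548, 560 and 708 normalized counts in untreated cells, at 323, 451 and 410 with ATRA and at 484, 471 and 464 with Am80. Every retinoid library lay below every untreated library. The log2 fold change with ATRA was -0.56 ± 0.13 (adjusted p = 0.00224), or 0.681-fold, which is also under the limit. It passed the limit without untreated replicate 1 (-0.62), without ATRA replicate 2 (-0.66) or without ATRA replicate 3 (-0.59). With Am80 the difference was -0.28 ± 0.13 (adjusted p = 0.103). For the 7 tested metallothioneins the median log2 fold change was -0.25 with ATRA and -0.26 with Am80, against -0.02 and -0.01 over all genes tested, and the comparisons share the untreated libraries. MTF1 gave 0.12 ± 0.08 with ATRA and -0.02 ± 0.08 with Am80, with adjusted p of 0.333 and 0.918.

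**Figure D2:**
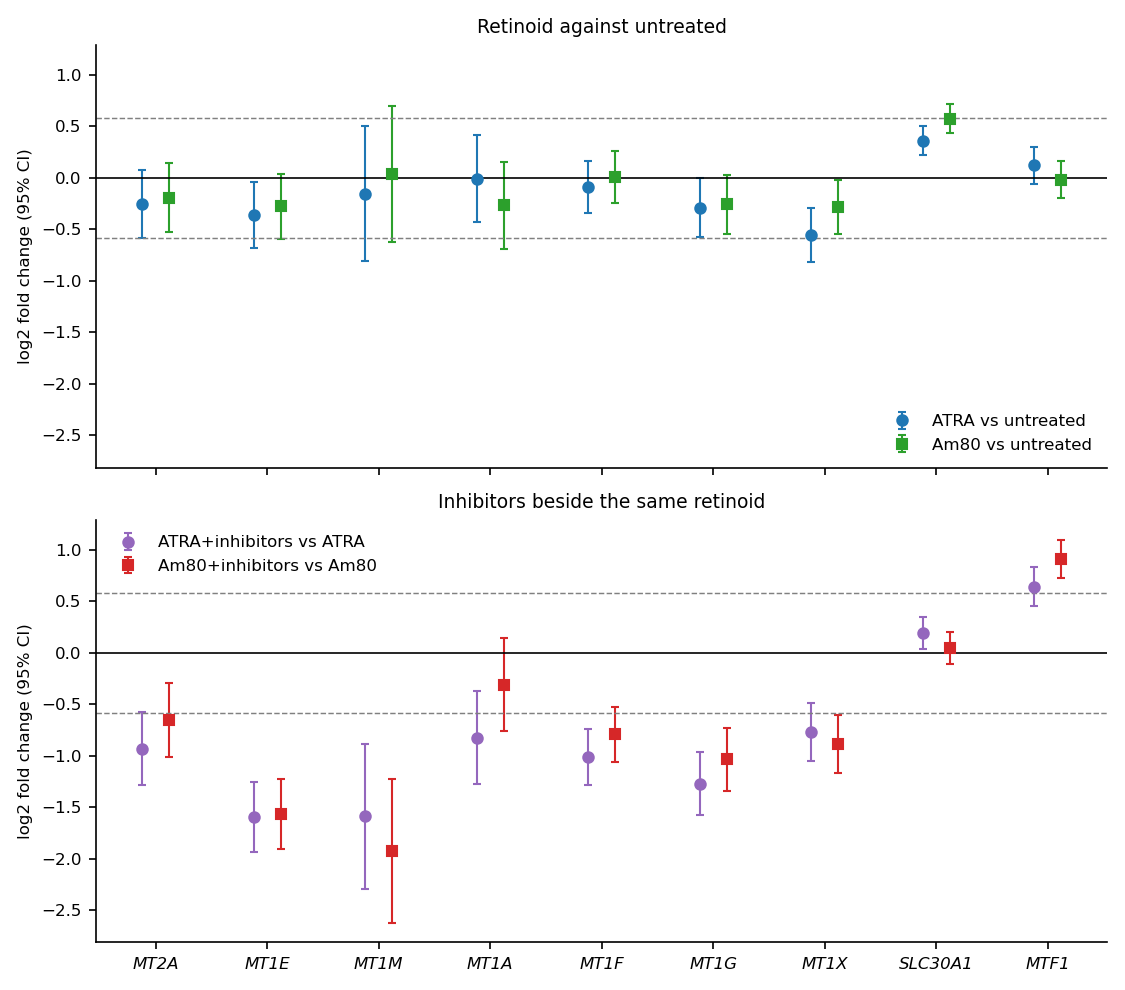
Log2 fold changes of the 9 tested members with 95% confidence intervals from limma, for each retinoid against untreated cells (top) and for the inhibitors beside the same retinoid (bottom), with dashed lines at the 1.5-fold limit. The intervals of MT2A, MT1E, MT1M, MT1F, MT1G and MT1X lie below 0 in both lower comparisons, and those of MTF1 above 0.

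The next question was what the LSD1 and GCN5 inhibitors added to each retinoid. Metallothionein transcripts were lower with the inhibitors: 7 of the 7 tested metallothioneins were called lower beside ATRA, where 11.4% of all genes were lower and 8.15% higher, and 6 of 7 beside Am80, where 8.9% were lower and 6.81% higher. Over these 7 genes the median log2 fold change stood at -1.01 beside ATRA and -0.89 beside Am80, against -0.02 and -0.01 over all genes tested. MTF1, the factor that activates them, was called higher beside both retinoids. The summed normalized counts of the 8 metallothioneins were 2735, 2903 and 3314 with ATRA and 1487, 1239 and 1322 once the inhibitors were added. They were 3550, 2692 and 3335 with Am80 and 1710, 1603 and 1470 with Am80 and inhibitors. No library with inhibitors reached the lowest library without them.

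MT1E had the largest fall among the metallothioneins with over 100 normalized counts in each group without inhibitors. It was at 694, 652 and 877 normalized counts with ATRA and at 247, 230 and 251 with ATRA and inhibitors. With Am80 it was at 843, 670 and 840, and with Am80 and inhibitors at 278, 279 and 233. The libraries with and without inhibitors did not overlap, and those with inhibitors lay close together. This gave a log2 fold change of -1.59 ± 0.16 (adjusted p = 1.79e-07) beside ATRA, or 0.331-fold, and -1.57 ± 0.16 (adjusted p = 2.42e-07) beside Am80, or 0.337-fold.

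MT1M, a member of the family with few reads here, fell as steeply by the fitted value. It was at 12.5, 15.5 and 16.6 normalized counts with ATRA and at 5.86, 5.43 and 2.27 with ATRA and inhibitors. With Am80 it was at 19.5, 12.4 and 20.3, and with Am80 and inhibitors at 3.29, 4.12 and 3.86, which is 3 reads in each of those 3 libraries. The groups did not overlap. The fitted log2 fold changes were -1.59 ± 0.34 (adjusted p = 0.000647) and -1.92 ± 0.34 (adjusted p = 0.000126). From the reads themselves, 13 against 54 gave a ratio of 0.306 beside ATRA (exact 95% interval 0.153 to 0.567), and 9 against 73 gave 0.224 beside Am80 (0.0985 to 0.449), intervals that cover counting error only.

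MT1G and MT1F, further zinc-binding members of the family, fell with both combinations. MT1G was at 693, 730 and 795 normalized counts with ATRA and at 365, 263 and 297 with ATRA and inhibitors. It was at 900, 599 and 796 with Am80 and at 394, 361 and 348 with Am80 and inhibitors. The log2 fold changes of MT1G were -1.27 ± 0.15 (adjusted p = 9.46e-07) and -1.04 ± 0.15 (adjusted p = 1.32e-05), with no overlap of the libraries. MT1F, the metallothionein with the smallest share of sequence in common with others, was at 454, 467 and 498 normalized counts with ATRA and at 261, 235 and 209 with ATRA and inhibitors. With Am80 it was at 553, 460 and 509, and with Am80 and inhibitors at 324, 278 and 276. Its log2 fold changes were -1.01 ± 0.13 (adjusted p = 3.10e-06) and -0.79 ± 0.13 (adjusted p = 6.15e-05), again with no overlap.

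MT2A, the main metallothionein of many human cells, was at 505, 537 and 663 normalized counts with ATRA and at 371, 262 and 266 with ATRA and inhibitors. It was at 694, 448 and 659 with Am80 and at 401, 361 and 362 with Am80 and inhibitors. The libraries did not overlap, although Am80 replicate 2 lay only a little above the highest Am80 library with inhibitors. The log2 fold change was -0.93 ± 0.17 (adjusted p = 0.000168) beside ATRA and -0.65 ± 0.17 (adjusted p = 0.00471) beside Am80. The call beside Am80 was lost without Am80 replicate 1 (-0.54) or without Am80 replicate 3 (-0.57), where the change was under 1.5-fold.

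MT1X fell from the values with each retinoid given above to 212, 212 and 266 normalized counts with ATRA and inhibitors and to 277, 274 and 219 with Am80 and inhibitors. These gave log2 fold changes of -0.77 ± 0.13 (adjusted p = 9.68e-05) and -0.89 ± 0.13 (adjusted p = 2.63e-05), without overlap.

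MT1A was the member for which the combinations did not give the same call. It was at 53.0, 50.03 and 54.0 normalized counts with ATRA and at 25.4, 31.5 and 30.7 with ATRA and inhibitors, a log2 fold change of -0.83 ± 0.22 (adjusted p = 0.00366). With Am80 it was at 56.6, 31.6 and 46.3, and with Am80 and inhibitors at 31.8, 45.4 and 29.6. The last groups overlapped, and the difference was -0.31 ± 0.22 (95% interval -0.76 to 0.14, adjusted p = 0.269). The effects beside the retinoids were not shown to differ, since the interaction was 0.52 ± 0.31 (95% interval -0.12 to 1.15, adjusted p = 0.422).

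MTF1 was at 1038, 974 and 969 normalized counts with ATRA and at 1444, 1792 and 1439 with ATRA and inhibitors. It was at 874, 956 and 884 with Am80 and at 1762, 1597 and 1748 with Am80 and inhibitors. Each library with inhibitors lay above every library without them. The inhibitors raised it by 0.64 ± 0.09 on the log2 scale (adjusted p = 9.55e-06) beside ATRA and 0.91 ± 0.09 (adjusted p = 1.35e-07) beside Am80. Beside ATRA it fell under the 1.5-fold limit without replicate 2 of ATRA with inhibitors (0.54), with quantile normalization (0.54), with scaling to total reads (0.49) and with the GC trend removed (0.54).

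SLC30A1, also a target of MTF1, gave no called change with the inhibitors. It was at 2455, 2568 and 2277 normalized counts with ATRA and inhibitors and at 2558, 2588 and 2494 with Am80 and inhibitors. Adding the inhibitors gave 0.19 ± 0.07 on the log2 scale (95% interval 0.04 to 0.35, adjusted p = 0.0352) beside ATRA, under the limit, and 0.05 ± 0.07 (95% interval -0.11 to 0.20, adjusted p = 0.646) beside Am80. The sign of these values turned with the GC trend removed, to -0.12 and -0.03. The adjusted p beside ATRA was also above 0.05 with quantile normalization, with scaling to total reads (0.625), without the filter, and with replicate 1 or 2 of ATRA or of ATRA with inhibitors left out.

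The make-up of the metallothionein reads shifted as the sum fell. MT1E made up 25.8% ± 1.9 (SD, n = 4) of the summed metallothionein counts in untreated cells, 18.1% ± 1.3 once ATRA was joined by the inhibitors and 16.5% ± 0.81 once Am80 was. MT2A made up 18.4% ± 1.2 in untreated cells and 22.1% ± 2.5 and 23.5% ± 1.0 with the combinations. MT1G made up 24.6% ± 0.54 in untreated cells, and 22.7% ± 1.7 and 23.1% ± 0.55 with the combinations. These shares are given without a test.

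Against untreated cells, metallothioneins were lower and MTF1 higher with each combination, in comparisons that share the untreated libraries. With ATRA and inhibitors, 7 of 7 tested metallothioneins were lower, against 14.8% of all genes lower and 14.2% higher, with log2 fold changes from -0.83 for MT1A to -1.95 for MT1E. With Am80 and inhibitors, 6 of 7 were lower, against 13.1% of all genes lower and 12.9% higher, and MT1A gave -0.57 ± 0.20 (adjusted p = 0.0211), under the limit. MT1A passed the limit there by edgeR (-0.61), by DESeq2 (-0.60) and with any 1 of these left out: untreated replicate 1 (-0.65), untreated replicate 2 (-0.62) or replicate 2 of Am80 with inhibitors (-0.76). Its adjusted p was above 0.05 with quantile normalization, with the replicate block, and with untreated replicate 4 or replicate 1 or 3 of Am80 with inhibitors left out, reaching 0.103 (-0.46) without the last of these. MTF1 was higher by 0.76 ± 0.08 (adjusted p = 1.91e-07) and 0.90 ± 0.08 (adjusted p = 1.93e-08), and the first fell under the limit with GC and length trends removed (0.55). SLC30A1 differed by 0.56 ± 0.07 (adjusted p = 7.81e-07) with ATRA and inhibitors, under the limit, and rose by 0.62 ± 0.07 (adjusted p = 1.70e-07) with Am80 and inhibitors. The first of these passed the limit without replicate 3 of ATRA with inhibitors (0.60) and shrank to 0.20 with the GC trend removed and to 0.15 (adjusted p = 0.0731) with the GC and length trends removed. The second fell under it with quantile normalization (0.45), with scaling to total reads (0.44) and with the GC trend removed (0.40).

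ATRA and Am80 differ in structure, Am80 being a synthetic aromatic retinoid and ATRA the natural acid with a polyene chain, and they were given at the same dose and time. Of the 9 member pairs, none was called between them, alone or beside the inhibitors, with p-values adjusted over all genes tested. Between the retinoids alone 0.0478% of all genes were called in either direction, and between the combinations 0.0%. SLC30A1 was higher with Am80 than with ATRA by 0.21 (95% interval 0.06 to 0.37, adjusted p = 0.192), with libraries that overlapped. MT1X was at 0.27 (95% interval -0.01 to 0.55, adjusted p = 0.373). Between the combinations MT1F gave 0.32 (95% interval 0.05 to 0.59, adjusted p = 0.22), with each Am80 library above each ATRA library, and MT2A gave 0.34 (95% interval -0.02 to 0.70, adjusted p = 0.297). The interaction, which asks whether the inhibitors acted differently beside the retinoids, called 0 members and 0.0% of all genes. At an unadjusted p under 0.05 in limma it held 1 member, MTF1 (0.27 ± 0.13, adjusted p = 0.326). SLC30A1 was the 1 member at that level between the retinoids alone, and MT1F between the combinations, and edgeR and DESeq2 called 0 members in all 3 of these comparisons. The intervals leave room for differences of that size, and they do not show that the retinoids act alike.

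The transcripts of the metallothioneins are short and their GC content is on the high side. Their mean transcript length ran from 396 to 816 bases, against a median of 1538 over the genes tested, and their GC content from 50.5% to 61.2%, against 49.7%. In an alternative added once the values were known, the trend of each library with GC content and length was removed. The log2 fold change of MT1E was then -1.44 beside ATRA and -1.45 beside Am80, and 7 of 7 metallothioneins stayed called beside ATRA. Beside Am80 MT2A lost its call (-0.54), which left 5 of 7.

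The myeloid marker genes gave at most 1 call in each direction with the inhibitors beside a retinoid. The summed level of the 8 markers was 26258 to 27871 normalized counts with ATRA, 24925 to 26372 with ATRA and inhibitors, 24644 to 30575 with Am80 and 26785 to 28331 with Am80 and inhibitors. Beside ATRA the inhibitors gave 1 of the 8 higher and 1 lower, against 8.15% and 11.4% of all genes. Beside Am80 they gave 0 higher and 1 lower, against 6.81% and 8.9%. Against untreated cells, where the marker sum was 28378 to 35163, 5 of 8 were lower with ATRA and inhibitors. The share over all genes was 14.8%. With Am80 and inhibitors 0 of 8 were lower, against 13.1%. The part of these markers in the results was not tested.

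The cluster's neighbours on chromosome 16 were read from a list of 9 genes, of which 8 were past the filter. Beside each retinoid the inhibitors gave 2 called higher and 0 called lower. Over all genes tested, 8.15% were higher and 11.4% lower beside ATRA, and 6.81% and 8.9% beside Am80. With 8 genes, 0 called lower is near what these shares give. The median over the 8 stood at 0.02 beside ATRA and 0.00 beside Am80. HERPUD1, a protein of endoplasmic reticulum quality control, was higher by 0.61 ± 0.08 beside ATRA and 0.69 ± 0.08 beside Am80. CETP, the cholesteryl ester transfer protein, was higher by 1.09 ± 0.37 and 0.96 ± 0.37 at 4 to 23 reads a library. HERPUD1 was also higher with the retinoids alone, by 1.09 ± 0.07 with ATRA and 1.13 ± 0.07 with Am80, and SLC12A3, a sodium and chloride transporter, was higher with ATRA by 0.69 ± 0.09. The nearest tested genes on the flanks, BBS2 and NUP93, were at -0.49 ± 0.10 and -0.17 ± 0.06 beside ATRA and at -0.54 ± 0.10 and -0.07 ± 0.06 beside Am80, without a call.

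**Figure D3:**
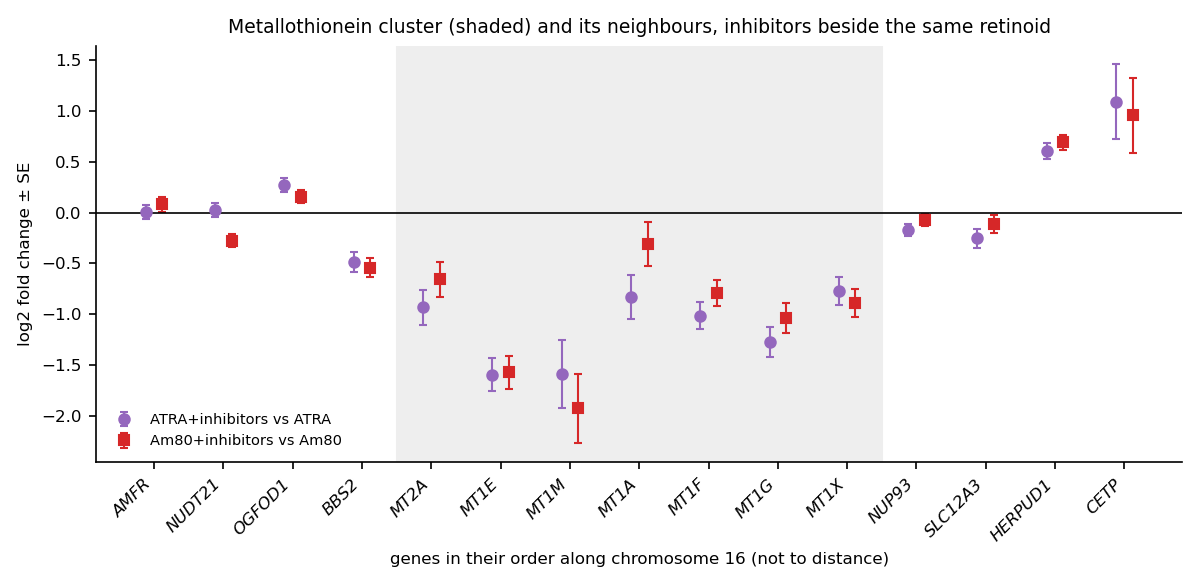
Log2 fold changes ± SE of the metallothioneins (shaded) and their tested neighbours in order along chromosome 16, for the inhibitors beside ATRA (circles) and beside Am80 (squares). The 7 metallothioneins lie below 0, and the neighbours lie between -0.54 for BBS2 and 1.09 for CETP.

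Most of the other zinc transporters were not called. Several of those beside ATRA had a limma adjusted p under 0.05 and missed the call by the fold limit only. Examples are SLC39A6, higher by 0.50 ± 0.07, and SLC39A13, at -0.55 ± 0.10. Of 23 further genes of the SLC30 exporters and SLC39 importers, 16 were past the filter. Beside ATRA the inhibitors gave 3 of the 16 higher and 1 lower, against 8.15% and 11.4% of all genes, with a median log2 fold change of 0.31. Beside Am80 they gave 0 higher and 1 lower, against 6.81% and 8.9%, with a median of 0.23. SLC39A1, an importer of the plasma membrane, fell by 1.04 beside ATRA and by 1.05 beside Am80 (SE 0.20 each). SLC39A10, an importer, gave 0.75 ± 0.09 beside ATRA and an uncalled 0.56 ± 0.09 beside Am80. SLC30A7, which loads zinc into the secretory pathway, gave 0.61 ± 0.10 and an uncalled 0.51 ± 0.10. SLC30A5, a partner in that pathway, gave 0.59 ± 0.07 and an uncalled 0.34 ± 0.07. With the retinoids alone, ATRA called 0 of the 16, and Am80 called SLC39A1 higher (0.59 ± 0.18) and SLC39A4, an intestinal type importer, lower (-0.70 ± 0.20). Over all genes tested, ATRA raised 6.52% and lowered 2.94%, and Am80 raised 6.41% and lowered 3.76%. With Am80, 1 of the 16 in each direction is near what these shares give.

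Of 10 genes of copper handling, 9 were past the filter, and the retinoids alone called none of them. Over all genes tested, ATRA raised 6.52% and lowered 2.94%, and Am80 raised 6.41% and lowered 3.76%. Beside ATRA the inhibitors gave 1 higher and 1 lower, against 8.15% and 11.4% of all genes. Beside Am80 they gave 1 higher and 0 lower, against 6.81% and 8.9%. SLC31A1, the main copper importer, rose by 0.99 ± 0.07 and by 0.85 ± 0.07. CCS, the copper chaperone of superoxide dismutase, fell by 0.71 beside ATRA (SE 0.12) and gave an uncalled -0.38 ± 0.12 beside Am80.

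Genes known to respond to oxidants and heat went the other way from the metallothioneins in the same libraries. Of 12 genes, 10 were past the filter, and with the inhibitors 9 were higher and 0 lower beside each retinoid, with a median log2 fold change of 1.97 beside ATRA and 2.19 beside Am80. HMOX1, the haem oxygenase, rose by 4.94 ± 0.18 and 5.64 ± 0.18 on the log2 scale. OSGIN1, an oxidant-induced gene, rose by 4.70 ± 0.23 and 5.03 ± 0.23, NQO1, a quinone reductase, by 2.82 ± 0.11 and 3.01 ± 0.11, and GCLM, of glutathione synthesis, by 2.37 ± 0.08 and 2.19 ± 0.08. The retinoids alone called 0 of the 10, against 6.52% of all genes higher and 2.94% lower with ATRA, and 6.41% and 3.76% with Am80. The heat shock genes HSPA1A and HSPA1B had 0 to 3 reads in each library and were not tested. How reads with several matches were counted is not given, so these counts do not show that either gene was silent.

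Of 6 genes known to be induced by glucocorticoids, all were past the filter, and with the inhibitors 0 were higher and 2 lower beside each retinoid. The share of all genes called lower was 11.4% beside ATRA and 8.9% beside Am80, and that called higher was 8.15% and 6.81%. PER1, a clock gene, fell by 1.43 beside ATRA and by 1.15 beside Am80 (SE 0.12 each). ZBTB16, a transcription factor, fell by 0.96 beside ATRA (SE 0.19) and gave an uncalled -0.57 ± 0.19 beside Am80. KLF9, another transcription factor, gave an uncalled -0.33 ± 0.10 and fell by 0.66 (SE 0.10). With the retinoids alone ZBTB16 was lower with ATRA (-0.74 ± 0.18) and with Am80 (-0.75 ± 0.18), and DUSP1, a phosphatase, was lower with ATRA (-0.76 ± 0.26). The part of any of these genes in the level of the metallothioneins was not tested.

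**Figure D4:**
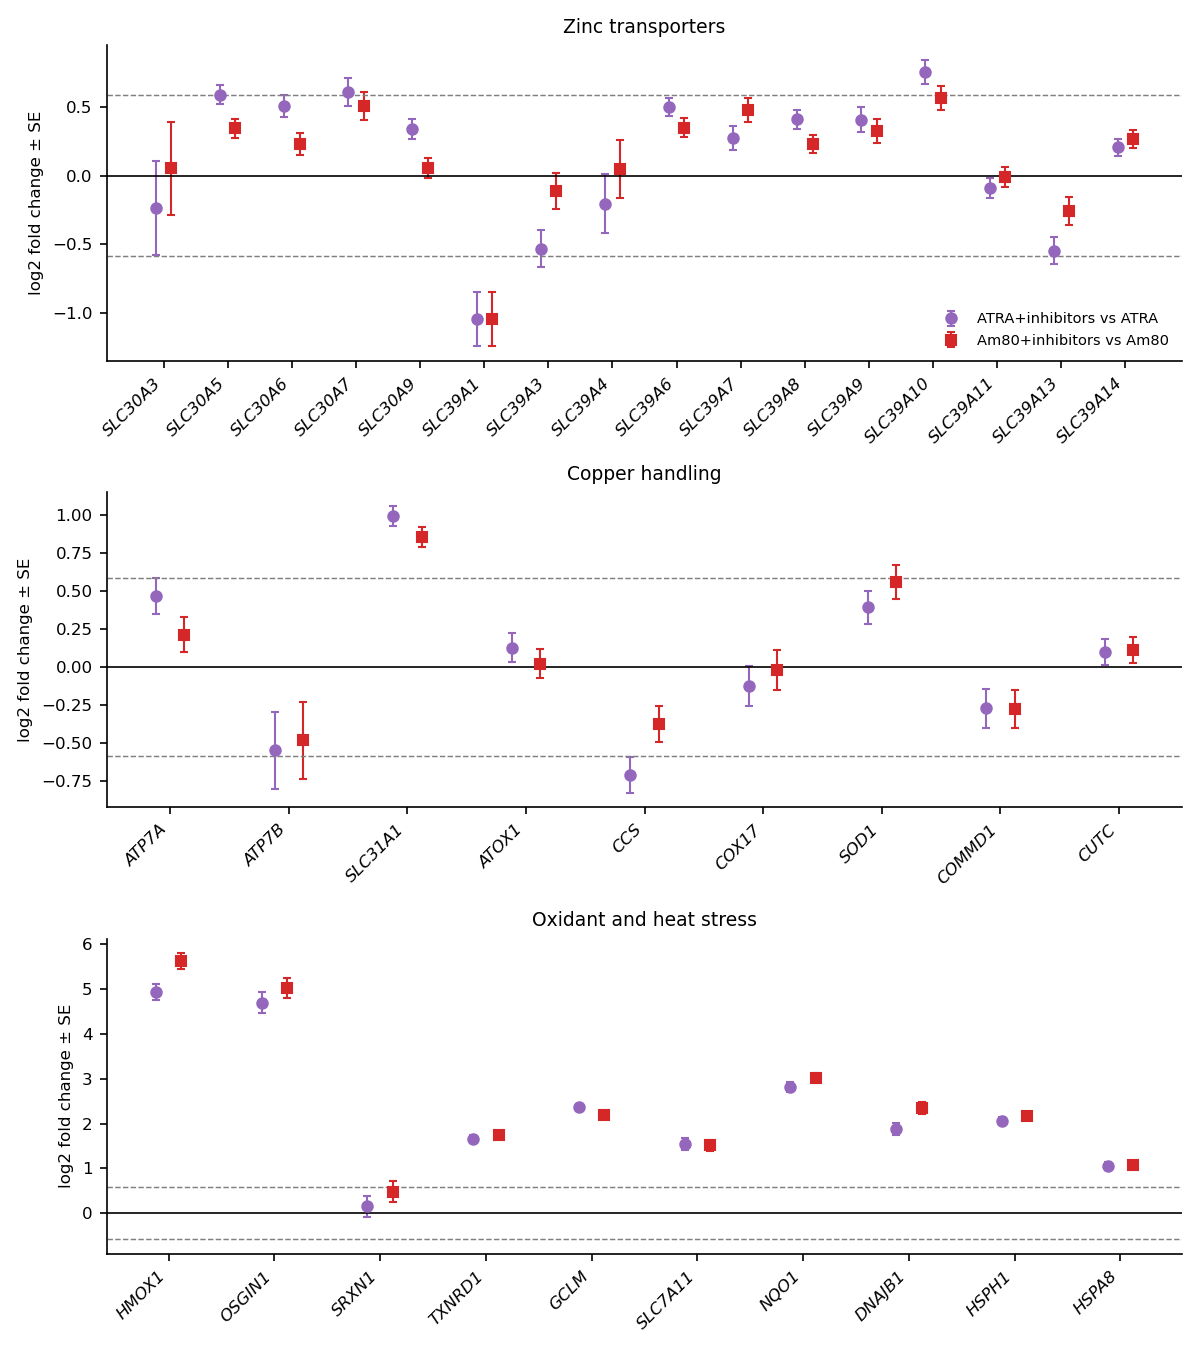
Log2 fold changes ± SE of the tested zinc transporters, copper handling genes and oxidant and heat stress genes, for the inhibitors beside ATRA (circles) and beside Am80 (squares), with dashed lines at the 1.5-fold limit and a separate scale in each panel. SLC39A1 lies lowest and SLC31A1 highest in their panels, and HMOX1 reaches 5.64.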

How the data were processed

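RNA-seq was made from OCI-AML3 cells of 5 groups (16 libraries) at 3 h, with doses as the study's methods give them. Per the labels (the submitters' processing notes), reads passed through FastQC, cutadapt, STAR, featureCounts and DESeq2. The labels and the study's methods name different extraction and library kits. Genome build, annotation, strand setting and versions are not given in the sources used here. The deposited values, a signal per gene, are counts that the authors divided by DESeq2 size factors, and all of them came out as whole reads (tolerance 0.001). Libraries of a group differed beyond sampling noise (chi-square per degree of freedom 2.75 to 25.9 over 18 pairs), so none was a duplicate.

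The log2(normalized count + 1) values of 14643 genes with a mean of at least 10 were fitted over all 16 libraries by limma 3.58.1 (R 4.3.3) with a mean trend, with Benjamini-Hochberg adjustment over those genes. Fold changes on this scale understate the change of genes with few counts. Intervals are 95%. Alternatives used edgeR 4.0.16 and DESeq2 1.42.0 on the recovered reads, other scalings, filters and pseudocounts, a replicate block, each library left out, and GC and length trends removed. The script was tested on simulated data. Transcripts and positions came from GENCODE 29 and promoters from RefSeq. All 10 members are named. The result of 1 further marker list is not reported here. From each list up to 4 called genes with the largest mean change were named. Members and lists were chosen with earlier results of these data known.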

Additional observations from a re-analysis of the deposited data

Results flagged for a closer look

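Among untreated cells, replicate 4 stood apart from the other 3 replicates in several metallothioneins. MT1E was at 1405 normalized counts there, with the next library at 857, and MT1G was at 1188 with the next at 836. MT1F was at 671 with the next at 469. The sum of the metallothioneins was 4956 with the next at 3440. In each case the gap to the nearest replicate was a larger share of the group's range (0.882, 0.912, 0.900 and 0.870) than Dixon's 95% critical value for 4 samples, which chance exceeds in about 1 of 20 groups. The 4 values are not independent, since the genes share a library, sequence and a sum. MT2A, MT1X and MT1A were also highest in that library, with ratios of 0.627, 0.716 and 0.591 under the critical value. The calls between the combinations and untreated cells were the same without that library. Untreated replicate 4 also stood apart as a whole library. Its chi-square per degree of freedom was 16.01, 23.37 and 23.28 against replicates 1, 2 and 3, which lay at 3.68 to 5.42 among themselves. Am80 replicate 2, lowest of its group in MT2A, MT1G and the sum, was likewise at 17.19 and 25.94 against replicates 1 and 3. Those replicates were at 4.61 from each other. The cause of these distances was not tested.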

How the results depend on the processing

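The 9 tested members in 9 comparisons were recomputed under the alternatives, which gave 2250 values. None reversed a called change, 2219 kept their side of the threshold, 17 passed it and 14 lost it, the last all in SLC30A1, MTF1 and MT2A and by the fold limit. The number of members called with ATRA against untreated cells, 0 in the reported fit, was 0 to 1 with a library left out, 1 with the GC trend or the GC and length trends removed, and 2 with no fold limit. With Am80 against untreated cells it was likewise 0 to 1 with a library left out, 1 by edgeR and 1 with no fold limit. With an adjusted p under 0.01 and a log2 limit of 1, the count was 4 for Am80 and inhibitors against untreated cells, 4 for the inhibitors beside ATRA and 3 beside Am80. Scaling to total reads shifted the median of all genes by -0.19 on the log2 scale for Am80 and inhibitors against untreated cells, the widest shift. No pairing by replicate number was seen. The correlation of deviations over 30 same-number pairs ran from -0.112 to 0.187, and 5 of 15 libraries were closest to their own number. The deviations are from means of 3 or 4 libraries, so this cannot exclude that same-number libraries were handled together. With a replicate block, 8 members were called beside ATRA and 7 beside Am80, as without it. MT1M, at 2 to 3 reads in some libraries, is limited by depth. GC and length alternatives were chosen after seeing the data and used 97.6% of the genes tested.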

Other observations

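Over the 16 libraries, the genes outside the members whose log2 values followed MT2A most closely were PYCARD (Pearson r 0.976), TMEM250 (0.974), RPS6KA4 (0.973), TYMP (0.972) and ENKD1 (0.969). Among the members MT1G was at 0.974, MT1F at 0.956, MT1E at 0.936, MT1M at 0.886, MT1X at 0.884 and MT1A at 0.835, while MTF1 was at -0.875. The genes that followed SLC30A1 most closely were UBE2J1 (0.970), CIP2A (0.966), FAM107B (0.965), LIMS1 (0.965) and RBM7 (0.964). These values describe likeness over libraries that share groups, and MT1 genes share sequence, so no p-value is given.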
